A study of Rattus norvegicus with 10 samples.

Results

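Rab GTPases are a family of small GTP-binding proteins, and their transcripts were followed here in primary rat oligodendrocyte lineage cells in which miR-145 was raised or inhibited. Members were all genes whose symbol is Rab followed by a number and at most 1 letter and 1 further digit, and 54 of the 16129 genes in the deposited table that pairs gene IDs with symbols met this rule. Each of the 54 symbols belonged to a single gene ID. Rab5a and Rab39b were not among them and were not analysed here.

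The 10 sequenced libraries form 5 groups of 2 and come from cultured Sprague-Dawley cells shaken off mixed glial cultures of neonatal cortex. The question behind the series is how miR-145 acts on the differentiation of oligodendrocyte progenitor cells (OPCs) into myelin-forming oligodendrocytes (OLs). OLs were assayed 5 days after transfection with a mimic of miR-145-5p (OL miR-145), with mimics of miR-145-5p and miR-219 together (OL miR-145+miR-219) or with a scrambled mimic (OL miR-ctl). OPCs were assayed 24 h after transfection with an inhibitor of miR-145-5p (OPC anti-miR-145) or a scrambled inhibitor (OPC anti-miR-ctl). Every oligonucleotide was used at 30 nM, and no group was left without transfection. OPCs were kept with the mitogens FGF2 and PDGFAA, whereas OLs differentiated with triiodothyronine and CNTF. The treatment tag of both OL miR-145 libraries also names miR-219, but their titles give miR-145 only, and the titles were followed. The study defines a replicate of primary culture as the enriched culture of a single animal, written as a mouse although these cells are labelled rat, and the sources used here do not say whether libraries with the same number share a culture. All levels come from bulk RNA, in which fewer cells of a type and less RNA per cell cannot be told apart.

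Rab proteins switch between a GDP-bound form in the cytosol and a GTP-bound form on a membrane. Guanine nucleotide exchange factors (GEFs) turn them on, GTPase-activating proteins (GAPs) turn them off, and geranylgeranyl anchors let them enter membranes, from which GDP dissociation inhibitors extract them. On the membrane each Rab recruits its own effectors, which tether, move or fuse vesicles, so that different Rabs mark different compartments. In OLs this traffic carries myelin proteolipid protein between endosomes and the cell surface, and Rab3a, Rab27b and Rab35 are among the members studied in these cells. The 54 members were sorted by textbook role into early endosome (6), recycling (7), late endosome, lysosome and autophagy (11), ER and Golgi (13), regulated and polarized exocytosis (12) and cilium (2), and 3 (Rab40b, Rab40c and Rab44) were in none of these lists.

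The mature miRNA that the mimic copies and the inhibitor opposes is shown because it is the agent that the treated groups have in common. Its sequence and that of rat miR-219a-5p come from RefSeq (GRCr8), with the seed, bases 2 to 8, in capitals. The labels do not say which arm the miR-219 mimic copies.
rno-miR-145-5p (chr18:57370033-57370055, minus strand): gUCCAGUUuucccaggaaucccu
rno-miR-219a-5p (chr3:33516561-33516581, minus strand): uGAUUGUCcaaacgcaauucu
The seeds UCCAGUU and GAUUGUC are not shared. Matches to them in Rab transcripts were not analysed here.

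Levels are CPM, the counts of a gene scaled to a common library size, after TMM scaling over all 10 libraries, and library totals ran from 33505668 to 42684176 counts. Of the 54 members, 43 had whole counts in every library, and 11 (Rab1a, Rab3a, Rab5c, Rab8b, Rab11a, Rab12, Rab14, Rab18, Rab23, Rab24 and Rab39a) had a fractional estimated count in at least 1 library, which arises when reads are split between genes that share sequence. The labelled stages were seen in their markers. The 12 maturing OL markers summed to between 16622 and 36316 CPM in the 6 OL libraries and to between 1183 and 1426 CPM in the 4 OPC libraries. Replicate 2 was above replicate 1 in each OL group. The sums were 33236 and 18324 CPM in OL miR-ctl, 26488 and 16622 CPM in OL miR-145 and 36316 and 20720 CPM with both mimics. The 7 OPC markers found summed to between 1425 and 2116 CPM in OLs and to between 3954 and 4998 CPM in OPCs. Single markers did not all follow the sums. Between OL miR-ctl and OPC anti-miR-ctl, 6 of the 7 OPC markers were lower in OLs and 1 was higher, by 3.74 on the log2 scale. Of the 12 maturing OL markers, 11 were higher in OLs and 1 was slightly lower. Astrocyte and interferon response markers also moved with the groups, and their values are given beside the comparisons they touch.

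The family as a whole took a larger share of the counts in OLs than in OPCs. Summed over the 54 members, Rab genes were at 4704 and 4677 CPM in OPC anti-miR-ctl, 5087 and 5118 CPM in OPC anti-miR-145, 6006 and 6046 CPM in OL miR-ctl, 6727 and 6256 CPM in OL miR-145 and 6637 and 5944 CPM in OL miR-145+miR-219. The lowest OL library thus lay above the highest OPC library. Both miR-145 values were above both OL miR-ctl values, whereas the OL miR-145+miR-219 values lay on either side of them. At the low end, Rab44 had 0 to 6 counts per library, Rab38 had 1 to 17 and Rab42 had 14 to 24, so differences in these 3 genes were hardly measurable at this depth.

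**Figure D1:**
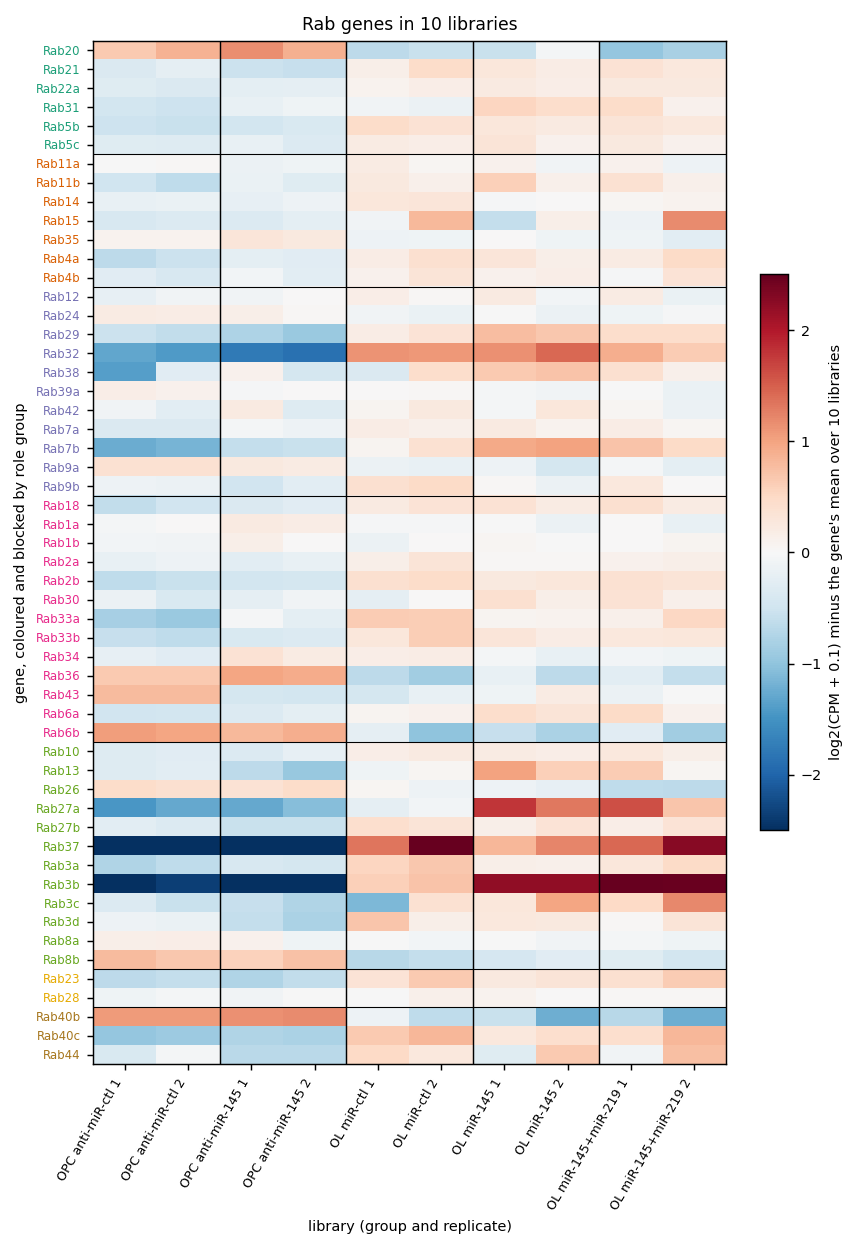
Each row is a Rab gene, each column a library, and the colour is log2(CPM + 0.1) minus the gene's mean over the 10 libraries, with names coloured and blocked by role group. Rab32, Rab7b and Rab3b are low in the 4 OPC libraries and high in OLs, whereas Rab20, Rab36, Rab6b, Rab8b and Rab40b are high in OPCs and low in OLs. Rab27a is high only in the OLs given mimics, and Rab37 is at 0 counts in all 4 OPC libraries.

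The first comparison asks what the miR-145 mimic changed in OLs. Exocytic Rabs stood at both ends, with Rab27a and Rab3b having the highest estimates and Rab37 the lowest of the 54, and 6 of the 12 had an estimate above 0. Rab27a and Rab3b were about 3-fold higher with the mimic, and Rab33a, Rab3a and Rab9b were lower in each miR-145 library than in either control. None of these differences passed the edgeR test, fitted without a replicate block, after adjustment. With p-values adjusted by Benjamini-Hochberg over all genes, the quasi-likelihood test of edgeR called 0 of 54 Rab genes and 0 of 15461 genes (0% of all genes), and the smallest adjusted p among Rab genes was 0.158. Before adjustment 13 Rab genes had a p under 0.05, 7 higher and 6 lower with the mimic, beside 13.4% of all genes. Groups did not overlap for 25 Rab genes, 13 higher and 12 lower, beside 47.3% of all genes. The median log2 fold change was -0.01 over the Rab genes and -0.01 over all genes. With a replicate block edgeR called 13 Rab genes beside 14.7% of all genes, but no label says that libraries of the same number share a culture. DESeq2 on the same libraries called 6 Rab genes, Rab27a, Rab3b, Rab31, Rab13 and Rab7b as higher and Rab33a as lower, beside 4.2% of all genes.

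Among the Rabs of exocytosis, Rab27a (ENSRNOG00000052499), which docks secretory lysosomes and exosome-bearing bodies at the plasma membrane, was at 25.8 and 18.6 CPM with the mimic and at 6.33 and 7.03 CPM in OL miR-ctl. Both miR-145 libraries were above both controls, although they lay far from each other, and the log2 fold change was 1.74 ± 0.21 (SE), with an adjusted p of 0.158. Its paralogue Rab27b was at 6.84 and 7.83 CPM with the mimic and at 8.27 and 7.80 CPM without it, so these groups overlapped. Rab3b (ENSRNOG00000008001), a Rab of regulated secretion, was at 7.53 and 7.48 CPM against 2.36 and 2.58 CPM. Its replicates were close in both groups and did not overlap, with a log2 fold change of 1.61 ± 0.22 (SE) and an adjusted p of 0.158. DESeq2 gave adjusted p-values of 3.33e-08 for Rab27a and 1.379e-05 for Rab3b. On simulated counts of this comparison, with 200 of 15461 genes changed, DESeq2 made 39 false calls and edgeR 14. Of the genes changed by 1 and by 2 on the log2 scale, DESeq2 called 58 and 96, and edgeR 50 and 90.

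Among the other Rab3 genes, Rab3a and Rab3d had estimates below 0 and Rab3c one above 0. Rab3a (ENSRNOG00000019433), the synaptic vesicle Rab, was at 39.5 and 38.5 CPM with the mimic and at 51.2 and 56.3 CPM in the controls, which is lower in both libraries, with a log2 fold change of -0.46 ± 0.11 (SE) and an adjusted p of 0.203. Rab3c was at 3.09 and 5.13 CPM against 1.11 and 3.35 CPM, and Rab3d at 2.48 and 2.45 CPM against 3.37 and 2.27 CPM. Both of these pairs of groups overlapped. Rab13 (ENSRNOG00000016733), which serves traffic to cell junctions, was at 82.3 and 62.0 CPM against 38.1 and 42.6 CPM. Both miR-145 libraries were above both controls, with a log2 fold change of 0.84 ± 0.17 (SE) and an adjusted p of 0.165. Rab37, a Rab of secretory granules, was at 0.923 and 1.24 CPM against 1.36 and 4.33 CPM, and the distance between its control replicates was larger than that between the groups.

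Of the 6 early endosome Rabs, Rab31 (ENSRNOG00000042189), which moves cargo between the trans-Golgi network and endosomes, was at 1261 and 1171 CPM with the mimic and at 810 and 778 CPM in the controls. The groups were well apart, with a log2 fold change of 0.62 ± 0.13 (SE), an adjusted p of 0.173 by edgeR and of 0.000453 by DESeq2. The Rab5 genes, whose products drive fusion of early endosomes, moved little. Rab5b was at 314 and 303 CPM against 354 and 335 CPM, lower in both libraries, and Rab5c was at 443 and 382 CPM against 411 and 400 CPM, with overlap.

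The 11 Rabs of late endosomes, lysosomes and autophagy had a median log2 fold change of 0.01. Rab7b (ENSRNOG00000039754), a Rab of transport from late endosomes to the Golgi, was at 46.9 and 48.7 CPM with the mimic and at 25.5 and 31.7 CPM without it, with a log2 fold change of 0.75 ± 0.15 (SE) and an adjusted p of 0.165. Rab7a, required for the fusion of late endosomes with lysosomes, was at 608 and 557 CPM against 592 and 568 CPM. The control values of Rab7a lay inside the range of the mimic values, so Rab7b stood apart from its namesake. Rab32, found on mitochondria and on lysosome-related organelles, was at 104 and 128 CPM against 103 and 100 CPM, and its paralogue Rab38 had 14 and 17 counts against 6 and 11. Rab9b was lower in both libraries, at 29.2 and 26.0 CPM against 37.8 and 40.4 CPM, with a log2 fold change of -0.50 ± 0.12 (SE) and an adjusted p of 0.205. Rab39a was at 24.0 and 23.2 CPM against 24.7 and 25.3 CPM.

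Among the 13 ER and Golgi Rabs, Rab33a (ENSRNOG00000006698), a Golgi-associated Rab, was at 28.2 and 28.5 CPM with the mimic and at 41.6 and 41.4 CPM in the controls. These groups were far apart relative to their replicates, with a log2 fold change of -0.54 ± 0.11 (SE) and an adjusted p of 0.167 by edgeR and 0.02279 by DESeq2. Rab34, which positions lysosomes and acts at the Golgi, was also lower in both libraries, at 51.7 and 46.9 CPM against 59.95 and 61.3 CPM. Rab6a, which controls transport at the Golgi, was at 708 and 651 CPM against 550 and 559 CPM, higher in both, with a log2 fold change of 0.30 ± 0.12 (SE). Its paralogue Rab6b was at 86.8 and 75.0 CPM against 111 and 64.3 CPM, and the groups overlapped. The 7 recycling Rabs ranged from -0.59 to 0.20 in log2 fold change. Rab11a and Rab11b, which act at recycling endosomes, overlapped between the groups, with 189 and 166 CPM against 202 and 182 CPM for Rab11a and 321 and 230 CPM against 250 and 232 CPM for Rab11b. Rab35, which returns cargo from endosomes to the surface, was at 77.8 and 72.0 CPM against 70.8 and 72.3 CPM. Groups did not overlap for 1 recycling Rab, Rab14, which was lower with the mimic.

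**Figure D2:**
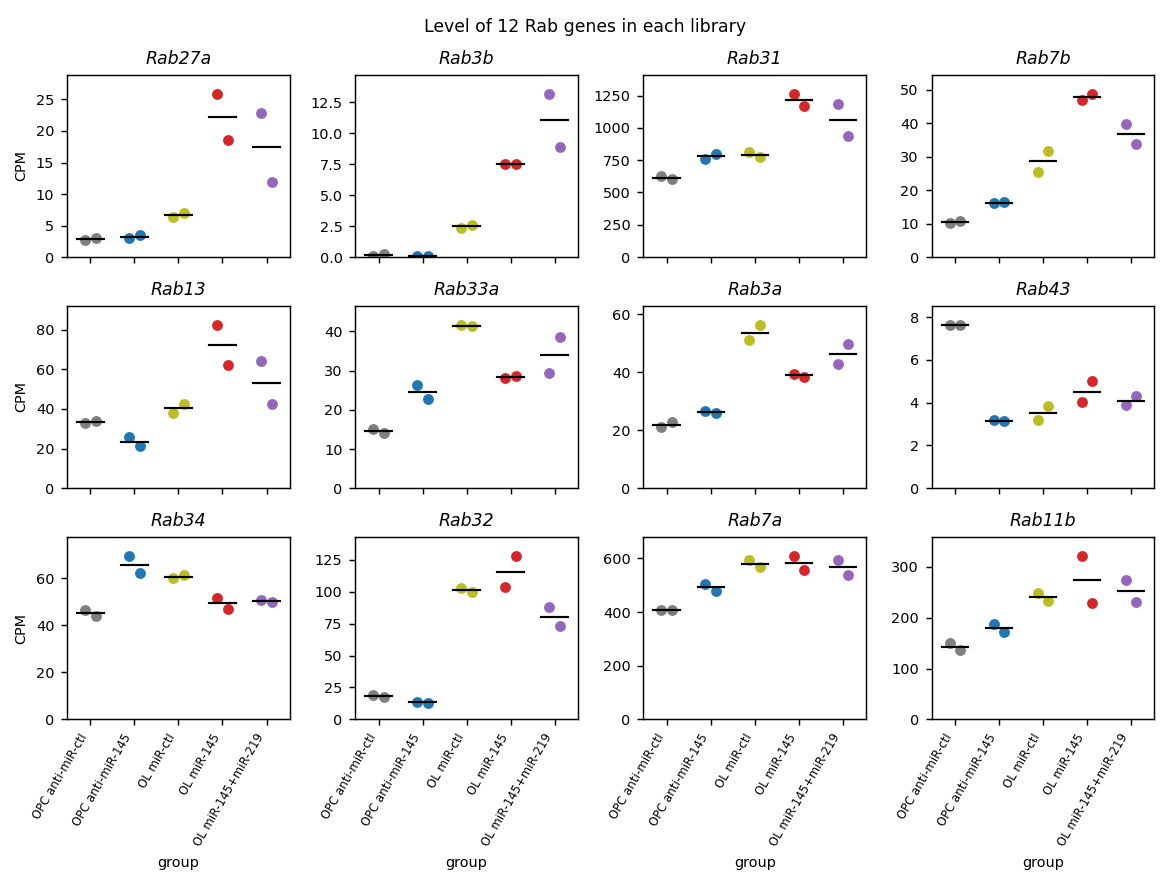
Points are CPM of each of 12 Rab genes in the 2 libraries of each group, lines are group means, and each panel has its own linear axis that starts at 0. Rab27a, Rab3b, Rab31, Rab7b and Rab13 have both OL miR-145 points above both OL miR-ctl points, Rab33a and Rab3a have both below, and Rab43 drops from 7.63 and 7.62 CPM in OPC anti-miR-ctl to 3.20 and 3.13 CPM in OPC anti-miR-145.

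**Figure D3:**
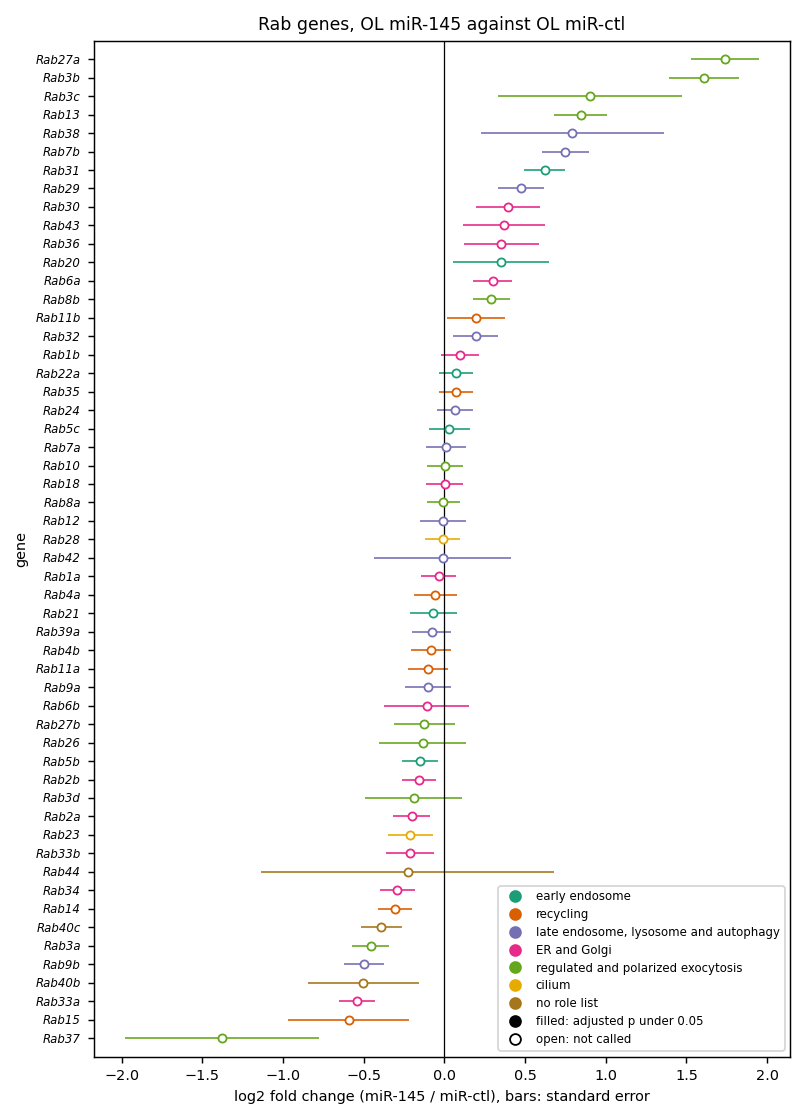
Points are log2 fold changes of the 54 Rab genes in OL miR-145 against OL miR-ctl with standard errors, coloured by role group. All points are open because edgeR called 0 of the 54, and Rab27a and Rab3b, at 1.74 and 1.61, lie at the upper end.

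Astrocyte markers moved together with these differences. The 10 astrocyte markers summed to between 9878 and 14537 CPM in OL miR-145 and to between 5909 and 6915 CPM in OL miR-ctl, none of the 10 was at 0 in an OL library, and 9 of them were higher in each miR-145 library than in either control. The 7 fibroblast or mural markers found were far lower but moved the same way, from between 29.5 and 39.2 CPM in OL miR-ctl to between 64.6 and 103 CPM in OL miR-145. Of the 15 microglia markers, 14 had estimates above 0 and 1 below, with a median log2 fold change of 0.60. An unadjusted p under 0.05 (edgeR) was seen for 3. Their sums overlapped, at 582 and 1288 CPM in OL miR-145 against 555 and 784 CPM in OL miR-ctl. In OPCs, where astrocyte markers summed to between 547 and 809 CPM, Rab27a was between 2.64 and 3.47 CPM and Rab3b between 0.0993 and 0.219 CPM. The part of RNA of these other cells in the Rab differences was not tested.

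The second comparison asks what both mimics together changed relative to the same OL miR-ctl libraries. edgeR again called 0 of 54 Rab genes (0% of all genes), 5 had an unadjusted p under 0.05 beside 6.19% of all genes, and groups did not overlap for 26 beside 36.7% of all genes. DESeq2 called Rab3b and Rab27a, both higher, beside 0.687% of all genes. Rab3b was at 13.1 and 8.90 CPM, above both controls, with a log2 fold change of 2.16 ± 0.26 (SE) and an adjusted p of 0.777 by edgeR. Rab27a was at 22.9 and 11.98 CPM, also above both controls, with a log2 fold change of 1.39 ± 0.33 (SE) and an adjusted p of 0.80. Its 2 replicates lay far apart.

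The remaining members of lowest p in that comparison were Rab34, Rab32, Rab31 and Rab8b. Rab34 was at 50.9 and 49.8 CPM and Rab32 at 87.8 and 73.3 CPM, each below both controls, with log2 fold changes of -0.26 ± 0.09 (SE) and -0.33 ± 0.12 (SE). Rab31 was at 1188 and 935 CPM and Rab8b at 101 and 89.9 CPM, each above both controls. Rab8b, a Rab of polarized exocytosis, had been at 76.9 and 82.4 CPM in OL miR-ctl. Rab3a, at 42.9 and 49.7 CPM, was below both controls, whereas Rab3d at 2.10 and 2.58 CPM, Rab27b at 6.97 and 7.83 CPM, Rab5c at 420 and 379 CPM, Rab7a at 596 and 538 CPM, Rab11a at 191 and 161 CPM and Rab35 at 71.9 and 64.8 CPM overlapped with them. Rab3c, at 3.63 and 5.92 CPM, was above both controls, which themselves lay far apart. The astrocyte markers summed to between 7164 and 12094 CPM in this group, above both controls, and their part was not tested here either. The fibroblast or mural markers summed to between 60.9 and 71.6 CPM.

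The third comparison asks what miR-219 added to miR-145. edgeR called 0 of 54 Rab genes (0% of all genes), 2 had an unadjusted p under 0.05 beside 1.47% of all genes, and groups did not overlap for 16 beside 24.8% of all genes. DESeq2 called 0 Rab genes beside 0.0581% of all genes. The 2 genes were Rab32 and Rab7b, both lower when miR-219 was added. Rab32 was at 87.8 and 73.3 CPM against 104 and 128 CPM, with a log2 fold change of -0.54 ± 0.16 (SE), and Rab7b was at 39.9 and 33.8 CPM against 46.9 and 48.7 CPM, with -0.39 ± 0.12 (SE). The groups did not overlap for either gene, and the edgeR adjusted p was 1.0 for both. Rab29, a lysosomal Rab that recruits Lrrk2, was at 15.2 and 15.2 CPM against 19.0 and 17.9 CPM, and Rab20, a Rab of phagosomes, at 1.90 and 2.13 CPM against 2.54 and 3.69 CPM, both lower in each library. Rab3b at 13.1 and 8.90 CPM against 7.53 and 7.48 CPM, and Rab37 at 1.46 and 2.69 CPM against 0.923 and 1.24 CPM, were higher. Over the 11 late endosome, lysosome and autophagy Rabs, 9 estimates were below 0 and 2 above, with a median log2 fold change of -0.06, beside -0.01 for all 54. In the same comparison all 10 astrocyte and all 15 microglia markers had estimates below 0, with medians of -0.31 and -0.43, and all 12 maturing OL markers had estimates above 0, with a median of 0.37. Their part in the Rab values was not tested.

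The fourth comparison asks what the miR-145 inhibitor changed in OPCs, and here Rab genes passed the test. Of 52 Rab genes tested, 8 rose (Rab33a, Rab7b, Rab34, Rab31, Rab4a, Rab11b, Rab36 and Rab7a) and 3 fell (Rab43, Rab13 and Rab32). These 11 are 21.2% of the members tested, beside 28.1% of all genes, with 12.1% of all genes higher and 16% lower. The share of Rab genes called was thus not above that of all genes. Groups did not overlap for 42 Rab genes, 25 higher and 17 lower, beside 67.8% of all genes, and the median log2 fold change was 0.11 over the Rab genes and 0.00 over all genes. Rab37, with 0 counts in all 4 OPC libraries, and Rab44, with at most 2, were not tested. The count of 11 moved with the library left out. edgeR called 3 Rab genes without either replicate of OPC anti-miR-ctl beside 15.5% and 15.8% of all genes, and 17 and 21 without replicate 1 and replicate 2 of OPC anti-miR-145, beside 34.7% and 46.7% of all genes. The share over all genes thus moved with the library as well. Rab33a and Rab43 were called whichever library was left out, Rab7b lost its call without replicate 1 of OPC anti-miR-ctl, Rab34 without replicate 2, and the other 7 without either.

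Rab43 (ENSRNOG00000037768), a Golgi Rab, showed the largest change among the called members. It was at 3.20 and 3.13 CPM with the inhibitor and at 7.63 and 7.62 CPM with its control. The replicates were nearly equal in both groups, and Rab43 fell 2.38-fold, by 1.25 ± 0.14 (SE) on the log2 scale, with an adjusted p of 0.000881 (edgeR). The other called ER and Golgi Rabs moved the other way. Rab33a was at 26.2 and 22.7 CPM against 15.2 and 14.0 CPM, and rose 1.69-fold, with a log2 fold change of 0.76 ± 0.12 (SE) and an adjusted p of 0.00345. Rab34 was at 69.2 and 62.0 CPM against 46.6 and 43.9 CPM, and rose 1.46-fold, with a log2 fold change of 0.55 ± 0.10 (SE) and an adjusted p of 0.00616. Rab36 (ENSRNOG00000001311), the closest relative of Rab34, was at 24.4 and 23.6 CPM against 19.4 and 19.5 CPM, with a log2 fold change of 0.32 ± 0.09 (SE) and an adjusted p of 0.0421. Of the other 9 ER and Golgi Rabs, which were not called, Rab6a was at 410 and 439 CPM against 375 and 378 CPM and Rab6b at 229 and 245 CPM against 269 and 258 CPM, groups that did not overlap in either case.

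Late endosomal Rabs moved in both directions. Rab7b was at 16.04 and 16.4 CPM with the inhibitor and at 10.2 and 10.9 CPM with its control, a rise of 1.56-fold with a log2 fold change of 0.64 ± 0.10 (SE) and an adjusted p of 0.00449. Rab7a (ENSRNOG00000012247) was at 506 and 478 CPM against 407 and 408 CPM, a smaller rise, with a log2 fold change of 0.29 ± 0.08 (SE) and an adjusted p of 0.0410. Rab32 (ENSRNOG00000014258) fell, from 19.0 and 17.6 CPM to 13.8 and 12.8 CPM, with a log2 fold change of -0.44 ± 0.11 (SE) and an adjusted p of 0.0214. The groups did not overlap for any of these 3. Rab38 had 10 and 6 counts against 1 and 6, and Rab39a was at 24.2 and 24.9 CPM against 27.7 and 26.6 CPM without being called.

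In the endosomal lists 3 Rabs rose and 0 fell. Rab31 was at 761 and 799 CPM with the inhibitor and at 626 and 605 CPM with its control, with a log2 fold change of 0.36 ± 0.08 (SE) and an adjusted p of 0.0163. Rab4a (ENSRNOG00000017467), which returns receptors rapidly to the surface, was at 29.8 and 29.2 CPM against 22.4 and 24.6 CPM, with 0.35 ± 0.10 (SE) and an adjusted p of 0.0390. Rab11b (ENSRNOG00000007648) was at 187 and 172 CPM against 150 and 136 CPM, with 0.34 ± 0.09 (SE) and an adjusted p of 0.0337. Its paralogue Rab11a lay on the other side of 0, at 161 and 163 CPM against 175 and 180 CPM, and was not called. Rab5b, at 188 and 200 CPM against 182 and 176 CPM, Rab5c, at 312 and 278 CPM against 286 and 283 CPM, and Rab35, at 96.4 and 92.0 CPM against 83.2 and 82.2 CPM, were not called.

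Among exocytic Rabs, Rab13 alone was called. It fell from 32.9 and 34.0 CPM to 26.0 and 21.2 CPM, with a log2 fold change of -0.49 ± 0.12 (SE) and an adjusted p of 0.0260. Rab3a was at 26.7 and 26.0 CPM against 21.1 and 22.8 CPM, higher in both libraries, with an adjusted p of 0.0749. Rab27a, at 3.00 and 3.47 CPM against 2.64 and 2.99 CPM, Rab27b, at 4.17 and 4.20 CPM against 5.12 and 4.85 CPM, Rab3c, at 1.66 and 1.45 CPM against 1.96 and 1.70 CPM, and Rab3d, at 1.32 and 1.14 CPM against 1.87 and 1.81 CPM, were not called. Rab3b, the gene with the largest estimate when both mimics were given to OLs, had 4 and 5 counts against 5 and 8 in OPCs. At such counts a difference was not detectable.

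**Figure D4:**
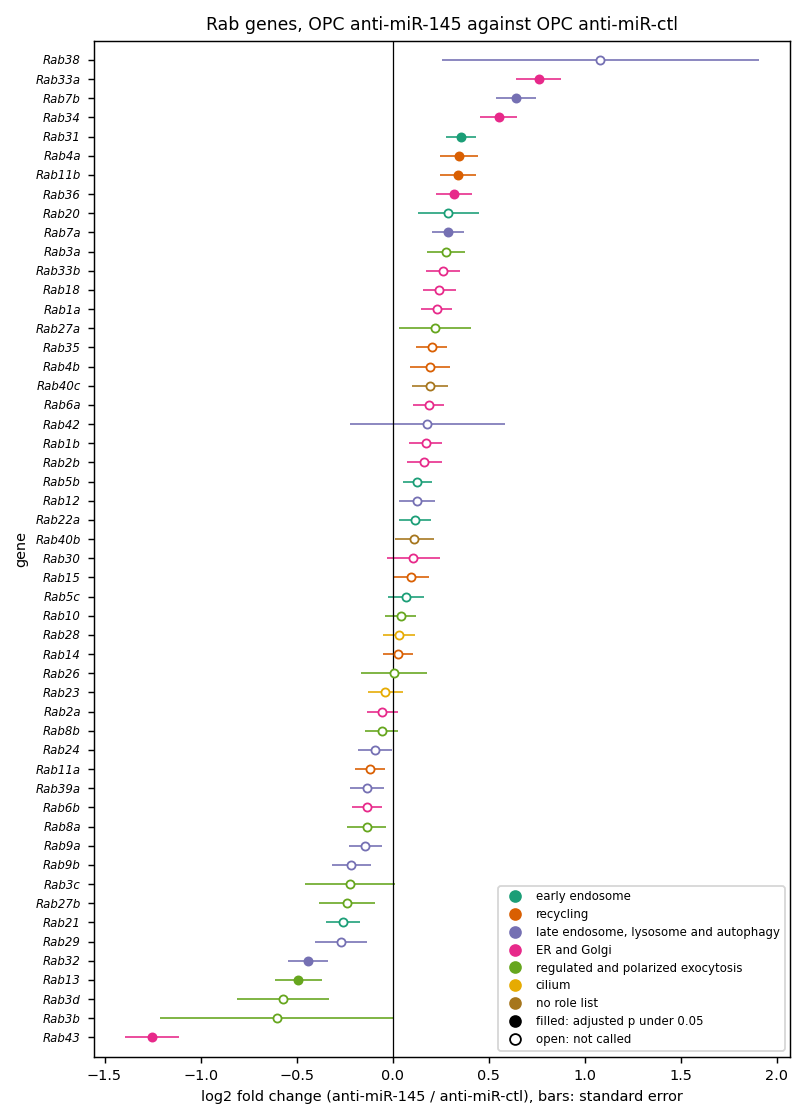
Points are log2 fold changes of the 52 Rab genes tested in OPC anti-miR-145 against OPC anti-miR-ctl with standard errors, coloured by role group, and filled points have an adjusted p under 0.05. Filled points are the 8 members that rose, up to Rab33a at 0.76, and the 3 that fell, down to Rab43 at -1.25, while Rab38 lies farthest right with a wide bar.

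Markers of several lists also differed between these OPC groups. The 11 interferon response genes found summed to between 227 and 264 CPM with the inhibitor and to between 1827 and 1946 CPM with its control, and all 11 were called lower. The 15 microglia markers summed to between 1166 and 1504 CPM against between 1744 and 1895 CPM, with 7 called higher, 7 called lower and none at 0. The astrocyte markers summed to between 547 and 598 CPM against between 777 and 809 CPM, with 2 of 9 tested called higher and 4 lower. The 12 maturing OL markers summed to between 1183 and 1192 CPM against between 1360 and 1426 CPM, with 2 called higher and 2 lower. Of 7 OPC markers tested, 2 were called higher and 2 lower, and of 7 neuron markers 4 were called higher and 0 lower. Over all genes 28.1% were called. The part of these lists in the Rab changes was not tested.

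The mimic and inhibitor comparisons share no library, so their values can be set side by side. Of the 13 Rab genes with an unadjusted p under 0.05 with the mimic in OLs, 9 had an estimate of the opposite sign with the inhibitor in OPCs, which is 69.2%. Among all genes treated the same way this held for 53.7% of 1952. Rab33a was at -0.54 with the mimic and 0.76 with the inhibitor, Rab34 at -0.29 and 0.55, Rab3a at -0.46 and 0.28, and Rab13 at 0.84 and -0.49 on the log2 scale. Rab31 had positive estimates in both, 0.62 and 0.36, as did Rab7b, with 0.75 and 0.64, and Rab27a, with 1.74 and 0.22. Rab9b had negative estimates in both, -0.50 and -0.22. Of the 9 with opposite signs, Rab33a, Rab34 and Rab13 were called with the inhibitor, and Rab3a, Rab40c, Rab14, Rab8b, Rab29 and Rab3b were not. The inhibitor estimates of Rab14 and Rab8b were near 0, at 0.03 and -0.06, and Rab3b had few counts in OPCs. Rab27a and Rab9b were not called with the inhibitor either. The mimic estimates were not called by edgeR without a replicate block, and stage and time after transfection differed between the comparisons.

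The fifth comparison sets control OLs against control OPCs and asks how Rab levels differ between the stages. The oligonucleotide class and the time after transfection also differed between these groups and cannot be told apart from stage. Most Rab genes were higher in OLs, with 29 called higher and 8 called lower of 53 tested. Called members were 69.8% of those tested, beside 57.5% of all genes, and of all genes 28.8% were called higher and 28.7% lower. Groups did not overlap for 48 Rab genes beside 81.7% of all genes, and the median log2 fold change was 0.50 over the Rab genes and 0.01 over all genes. The direction was shared across compartments, since the called members were 5 higher and 1 lower among early endosome Rabs, 4 and 0 among recycling Rabs, 5 and 2 among late endosome, lysosome and autophagy Rabs, 7 and 3 among ER and Golgi Rabs and 6 and 1 among exocytic Rabs. Without replicate 1 or replicate 2 of OPC anti-miR-ctl the test called 22 Rab genes, 15 higher and 7 lower in either case, beside 31.9% and 31.4% of all genes. The calls of Rab5c, Rab6a, Rab7a, Rab24, Rab27b and Rab31 were among those lost in both fits.

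The largest rise among exocytic Rabs that could be measured was that of Rab3b, at 2.36 and 2.58 CPM in OLs and 0.117 and 0.219 CPM in OPCs, with a log2 fold change of 3.87 ± 0.38 (SE) and an adjusted p of 0.000895. Its OPC value rests on 5 and 8 counts. Rab37 (ENSRNOG00000059793) had 54 and 141 counts in OLs and 0 in both OPC libraries, which makes it at least 37.3-fold higher in OLs if each OPC library is given the 3 counts that a count of 0 allows, for counting error only. That limit was 17.8-fold without replicate 2 of OL miR-ctl and 56.8-fold without replicate 1. Rab3a was at 51.2 and 56.3 CPM against 21.1 and 22.8 CPM, with a log2 fold change of 1.28 ± 0.10 (SE) and an adjusted p of 0.00040, and Rab27a was at 6.33 and 7.03 CPM against 2.64 and 2.99 CPM, with 1.24 ± 0.18 (SE) and 0.0031. Rab27b rose less, from 5.12 and 4.85 CPM to 8.27 and 7.80 CPM, with an adjusted p of 0.0111. Rab3c and Rab3d were not called. The exception in this list was Rab8b (ENSRNOG00000018009), which fell from 214 and 197 CPM in OPCs to 76.9 and 82.4 CPM in OLs, with a log2 fold change of -1.37 ± 0.08 (SE) and an adjusted p of 0.00019.

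Among the late endosomal and lysosomal Rabs, Rab32 had the smallest adjusted p of the family. It was at 103 and 100 CPM in OLs and at 19.0 and 17.6 CPM in OPCs, a rise of 5.54-fold with a log2 fold change of 2.47 ± 0.08 (SE) and an adjusted p of 5.167e-05. Rab7b rose 2.71-fold, from 10.2 and 10.9 CPM to 25.5 and 31.7 CPM, with an adjusted p of 0.00094, and Rab7a rose from 407 and 408 CPM to 592 and 568 CPM, with a log2 fold change of 0.51 ± 0.08 (SE) and an adjusted p of 0.00373. Rab9a (ENSRNOG00000030443), which returns mannose 6-phosphate receptors from late endosomes to the Golgi, and Rab24, an atypical Rab of autophagy, fell. Rab9a was at 32.0 and 31.3 CPM in OLs against 46.6 and 46.1 CPM, with a log2 fold change of -0.55 ± 0.08 (SE), and Rab24 at 49.1 and 46.5 CPM against 60.02 and 59.5 CPM, with -0.33 ± 0.08 (SE) and an adjusted p of 0.017. Rab38 and Rab39a were not called.

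In the ER and Golgi list some paralogues were called in opposite directions and others in the same one. Rab6a rose from 375 and 378 CPM in OPCs to 550 and 559 CPM in OLs, with a log2 fold change of 0.55 ± 0.07 (SE) and an adjusted p of 0.00254. Rab6b (ENSRNOG00000009198), its relative that is abundant in neurons, fell from 269 and 258 CPM to 111 and 64.3 CPM, with -1.59 ± 0.26 (SE) and an adjusted p of 0.00463. Rab34 rose while Rab36 fell, from 19.4 and 19.5 CPM to 7.79 and 6.73 CPM, with a log2 fold change of -1.42 ± 0.13 (SE) and an adjusted p of 0.00062. The rise of Rab34 was seen against OPC anti-miR-ctl only. It was at 69.2 and 62.0 CPM in OPC anti-miR-145, above its 59.95 and 61.3 CPM in OL miR-ctl. Rab33a rose from 15.2 and 14.0 CPM to 41.6 and 41.4 CPM, with 1.50 ± 0.09 (SE) and an adjusted p of 0.00018. Its relative Rab33b was also called higher, with 1.07 ± 0.13 (SE), as were Rab2a, with 0.39 ± 0.09 (SE), and Rab2b, with 1.03 ± 0.09 (SE), which act between the ER and the Golgi. Rab43 fell from 7.63 and 7.62 CPM to 3.19 and 3.84 CPM, with -1.12 ± 0.17 (SE) and an adjusted p of 0.00378. In OPC anti-miR-145 it was at 3.20 and 3.13 CPM, which overlapped with OL miR-ctl, so OPC anti-miR-ctl alone was high. Rab1a and Rab1b, which serve transport from the ER to the Golgi, were not called, with log2 fold changes of -0.03 ± 0.08 (SE) and 0.01 ± 0.09 (SE).

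The paralogues Rab40b and Rab40c, which carry a SOCS box and act with ubiquitin ligases, also parted. Rab40c (ENSRNOG00000020067) rose from 20.6 and 21.5 CPM in OPCs to 63.7 and 72.4 CPM in OLs, with a log2 fold change of 1.69 ± 0.10 (SE) and an adjusted p of 0.00018. Rab40b (ENSRNOG00000036661) fell from 11.7 and 11.8 CPM to 5.08 and 3.53 CPM, with -1.45 ± 0.20 (SE) and an adjusted p of 0.00295. In the early endosome list, Rab20 (ENSRNOG00000023991) fell from 6.03 and 6.99 CPM to 2.36 and 2.55 CPM, with -1.41 ± 0.18 (SE) and an adjusted p of 0.00224. Rab5b rose from 182 and 176 CPM to 354 and 335 CPM and Rab5c from 286 and 283 CPM to 411 and 400 CPM, with adjusted p-values of 0.00047 and 0.00324. Rab31 rose from 626 and 605 CPM to 810 and 778 CPM, with an adjusted p of 0.0122, but its OPC anti-miR-145 values, 761 and 799 CPM, overlapped with OL miR-ctl. Among recycling Rabs, Rab11b rose, with 0.75 ± 0.09 (SE), whereas Rab11a, with 0.11 ± 0.09 (SE), and Rab35, with -0.21 ± 0.07 (SE), were not called. Rab23, a Rab of the primary cilium that restrains Hedgehog signalling, rose from 40.3 and 42.3 CPM to 80.6 and 101 CPM, and Rab28 was not called.

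**Figure D5:**
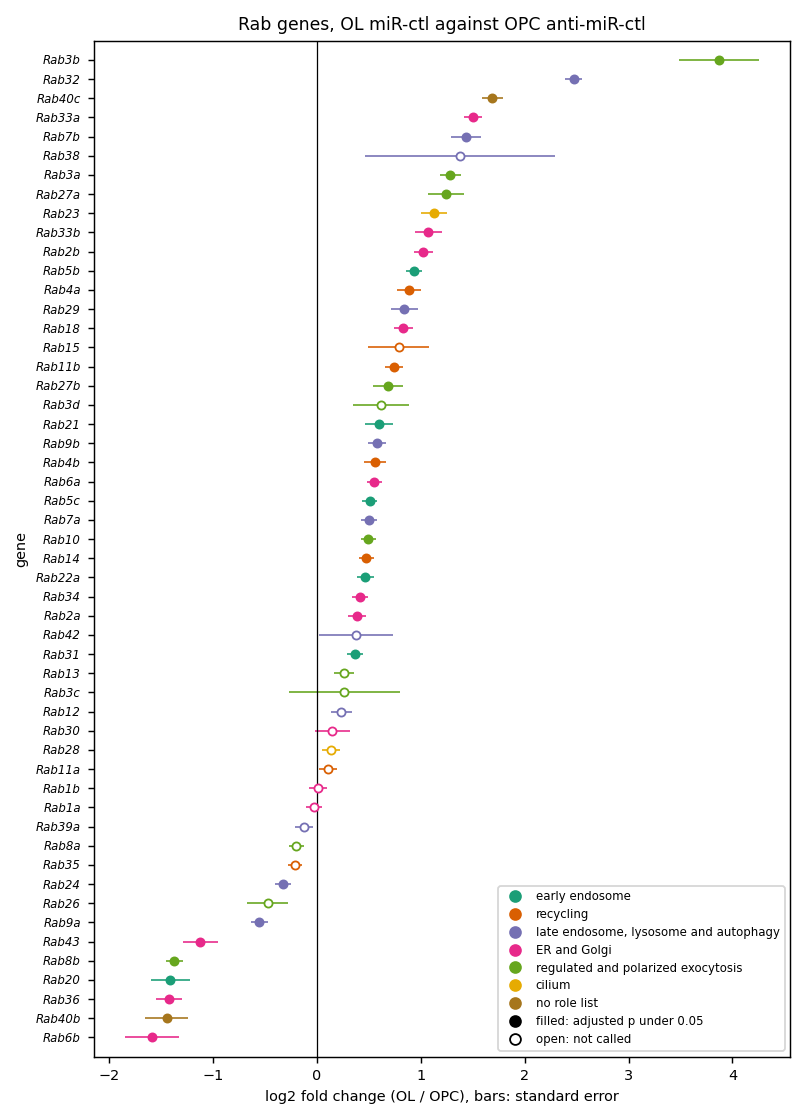
Points are log2 fold changes of 52 Rab genes in OL miR-ctl against OPC anti-miR-ctl with standard errors, coloured by role group, and filled points have an adjusted p under 0.05. Rab37 is left out because it is at 0 in both OPC libraries, Rab3b and Rab32 lie farthest right at 3.87 and 2.47, and Rab6b lies farthest left at -1.59.

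In this comparison 9 of 10 astrocyte markers were called higher in OLs, 8 of 15 microglia markers were called lower, 1 was called higher, and the 11 interferon response genes were all called lower, at a summed 58.8 and 59.7 CPM in OLs against 1827 to 1946 CPM in OPCs. Of 7 neuron markers tested, 4 were called lower in OLs and 1 higher, beside 57.5% of all genes called. Neuron marker sums were between 378 and 494 CPM in OL miR-ctl and between 592 and 626 CPM in OPC anti-miR-ctl. The part of other cells, or of the interferon response in the control OPCs, in the Rab differences was not tested.

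The partners of the family were counted by list. In OLs given the mimic, edgeR called 0 of 7 prenylation and membrane cycling genes, 0 of 33 GEFs, 0 of 39 GAPs and 0 of 48 effectors. It called 0% of all genes there, so these counts say nothing about the partners in particular. In OPCs given the inhibitor, the test called 2 of 7 prenylation and membrane cycling genes higher and 0 lower, 3 of 33 GEFs higher and 4 lower, 4 of 38 GAPs higher and 4 lower, and 5 of 46 effectors higher and 13 lower. Called genes were 28.6%, 21.2%, 21.1% and 39.1% of these lists, beside 28.1% of all genes, of which 12.1% were higher and 16% lower. The effectors had a median log2 fold change of -0.20. Rab11fip1, an effector of Rab11, fell by 2.93 ± 0.17 (SE) on the log2 scale, Optn, an effector of Rab8, by 1.40 ± 0.08 (SE) and Ehbp1l1 by 1.45 ± 0.15 (SE), whereas Rufy1, an effector of Rab4 and Rab14, rose by 0.89 ± 0.09 (SE). Between control OLs and OPCs the calls were 4 higher and 2 lower of 7 prenylation and cycling genes, 10 and 8 of 33 GEFs, 17 and 6 of 38 GAPs and 21 and 13 of 48 effectors. These are 85.7%, 54.5%, 60.5% and 70.8% of the lists, beside 57.5% of all genes. Sytl2, an effector of Rab27 whose symbol sits on 2 gene IDs, was 4.17 ± 0.20 (SE) higher in OLs on the log2 scale by the first ID and 5.78 ± 0.90 (SE) by the second, and Hps4, part of the exchange factor of Rab32 and Rab38, was 1.56 ± 0.10 (SE) higher.

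Promoters are shown for 3 members that lie at the ends of the comparisons, Rab27a and Rab3b with the mimics and Rab43 with the inhibitor. RefSeq windows from 250 bases before to 50 bases after the start of the gene (GRCr8) were matched by symbol to 43 of the 54 members. Each runs 5′ to 3′ on the strand of the gene, and capitals mark the GC box GGGCGG on either strand, the motif that most members shared.
Rab27a (chr8:82663123-82663422, plus strand): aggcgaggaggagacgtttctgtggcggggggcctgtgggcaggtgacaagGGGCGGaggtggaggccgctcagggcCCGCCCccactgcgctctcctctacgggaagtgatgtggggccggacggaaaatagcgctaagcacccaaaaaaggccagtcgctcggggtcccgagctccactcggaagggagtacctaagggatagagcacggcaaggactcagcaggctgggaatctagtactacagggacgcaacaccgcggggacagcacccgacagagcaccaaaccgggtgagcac
Rab3b (chr5:128858841-128859140, plus strand): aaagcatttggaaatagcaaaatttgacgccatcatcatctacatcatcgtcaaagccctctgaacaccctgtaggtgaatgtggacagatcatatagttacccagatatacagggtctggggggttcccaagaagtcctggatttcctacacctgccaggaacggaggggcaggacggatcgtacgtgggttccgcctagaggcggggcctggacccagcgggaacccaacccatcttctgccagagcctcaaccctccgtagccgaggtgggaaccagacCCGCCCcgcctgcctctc
Rab43 (chr4:121826462-121826761, minus strand): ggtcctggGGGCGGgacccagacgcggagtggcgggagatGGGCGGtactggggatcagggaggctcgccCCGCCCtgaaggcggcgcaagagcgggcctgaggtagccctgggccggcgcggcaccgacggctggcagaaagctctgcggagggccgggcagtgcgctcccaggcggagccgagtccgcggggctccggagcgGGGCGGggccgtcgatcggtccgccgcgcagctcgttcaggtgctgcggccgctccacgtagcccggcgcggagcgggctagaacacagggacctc
The windows hold 2, 1 and 4 GC boxes and 21, 13 and 39 CG dinucleotides.

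A GC box on either strand was found in 36 of the 43 members, which is 83.7%, beside 33.1% of all 33469 windows and 41.8% of the 21842 windows of protein-coding genes. The median number of CG dinucleotides was 21 per Rab window, 7 over all windows and 11 over those of protein-coding genes, so the windows of the family were rich in CG. The CCAAT box (CCAAT) was in 17 of the 43 members, 39.5%, beside 37.5% of all windows, and the E-box CACGTG was in 3 members (Rab20, Rab21 and Rab31), 6.98%, beside 6.42%. TATAAA, and the core of the interferon response element, which is a pair of GAAA runs with any 2 bases between them, were in 0 of the 43, beside 14.2% and 3.92% of all windows. Matches of different motifs may overlap. They are a description of these windows only, and no statement about a factor follows from them.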

How the data were processed

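Reads of TruSeq Stranded mRNA libraries (NextSeq 500) were assigned by the authors to GENCODE Rnor6.0 transcripts with Salmon 0.12.0, loaded with tximport and deposited as estimated counts per gene, not normalized. The authors' table of DESeq2 results for the miR-145 mimic gave the gene symbols, and its fold changes and p-values were not used. The RNAseq methods of the study name lentiviral transduction, whereas its results and the labels name mimics.

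Estimated counts were rounded. The 5 comparisons were fitted separately, each over the 4 libraries it concerns, with edgeR 4.0.16 (R 4.3.3, TMM, quasi-likelihood test). A gene entered if 2 or more of these libraries had 5 or more counts, and was called where its adjusted p (Benjamini-Hochberg, all genes) was under 0.05. The SE is the log2 fold change divided by the square root of F. Tests are two-sided. DESeq2 1.42.0 was an alternative. Scripts were tested on simulated data, in which DESeq2 made more false calls than edgeR in each comparison. Members, role lists and partner lists were chosen with earlier results of these data known. Named genes are the called members with the 8 largest log2 fold changes in each direction, or the 6 of smallest p where fewer than 4 were called, plus members known in OLs and their paralogues. Rab1a, Rab1b, Rab2a, Rab2b, Rab23, Rab28 and Rab33b, and Rab37, Rab9b, Rab14 and Rab34 with the mimic, were named after their values were seen. Partners named are among the 3 of smallest p in each direction. Motifs were searched with Python 3.11.15.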

Additional observations from a re-analysis of the deposited data

How the results depend on the processing

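Depth limited Rab38, Rab42 and Rab44 throughout and Rab3b and Rab37 in OPCs, and each group had only 2 libraries. No Rab gene named in the text changed the sign of a called value under any alternative. DESeq2 called 6 Rab genes in OL miR-145 and 2 in OL miR-145+miR-219 against OL miR-ctl, beside 4.2% and 0.687% of all genes. By construction, a fold change of at least 1.5 left 3 of the 11 OPC inhibitor calls. It also left 24 of the 37 calls between control OLs and OPCs. Fitting all 5 groups together left 4 OPC inhibitor calls beside 15.6% of all genes, against 28.1% of all genes in the main fit. The cause was not tested. With 1 library left out, where the lone library is assumed to vary like its counterparts, the counts ranged from 3 to 21 for the OPC inhibitor, from 22 to 42 between control OLs and OPCs, and were 0 in every fit of the 3 mimic comparisons. In the OPC inhibitor fits and in those between control OLs and OPCs, the share called over all genes also moved with the library left out. These ranges therefore do not set the Rab genes apart from other genes. In the mimic fits no gene at all was called, so their counts say nothing about Rab genes in particular. The replicate numbers are not stated to mark shared cultures, and deviations of same-numbered libraries correlated at 0.403, 0.467, 0.632, -0.152 and 0.0679 in the 5 comparisons. With a replicate block edgeR called 13 Rab genes in OL miR-145 against OL miR-ctl, 1 with both mimics against OL miR-ctl, 2 with both mimics against OL miR-145, 6 with the OPC inhibitor and 38 between control OLs and OPCs, beside 14.7%, 0.855%, 1.19%, 25.6% and 54.3% of all genes. A crossed replicate block for the OPC inhibitor, added after seeing the data, gave 14, beside 35.7% of all genes. Size factors of DESeq2, no filter on low counts and a filter of at least 1 CPM in 2 libraries kept the other counts within 1.5 times.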
